A study of Mus musculus with 4 samples.

Results

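The gene set described here holds Trp53, which encodes the transcription factor p53, and 9 genes that act with it or beside it. Mdm2, Ccng1, Phlda3, Trp53inp1, Bax, Bbc3 and Cdkn1a are p53 targets, while Cdkn1b and Cdkn2c encode inhibitors of the cyclin-dependent kinases (CDKs). The 10 genes were taken by their symbols from 24771 listed features, each matched 1 row, and all 10 were among the 13193 features tested. Their mRNA was measured by RNA-seq in 2 samples of PSC-derived SG placodes and 2 samples of E12.5 mouse submandibular glands (SMGs). The placodes were aggregates of 129w2, a mouse embryonic stem cell line, collected on day 10 and called induced embryonic salivary glands in the labels. They were seeded at 3000 cells per well, kept in 2% growth factor reduced Matrigel, and received 2 ng/ml BMP4 on day 3, 25 ng/ml bFGF plus 1 μM retinoic acid on day 4 and, after transfer on day 6, 200 ng/ml FGF10. The SMGs came from mouse embryos whose strain and dissection are not given in the sources used here, and no source names a mutation or transgene in either group. Culture and tissue cannot be told apart from the comparison of placodes with SMGs. No source says whether the 2 samples of a group came from separate cultures or litters, so p-values measure only the spread between these samples.

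p53 is held at a low level in unstressed cells because Mdm2, a ubiquitin ligase that is itself a p53 target, marks it for breakdown. After DNA damage or other stress the protein is stabilised, so its activity is set largely at the protein and not at the mRNA. Its targets arrest the cell cycle (Cdkn1a), permeabilise mitochondria (Bax and Bbc3) or feed back on p53 itself (Mdm2 and Ccng1). CDK inhibitors form the Cip/Kip family (Cdkn1a, Cdkn1b and Cdkn1c, for p21, p27 and p57), which binds complexes of cyclins with CDKs, and the Ink4 family (Cdkn2a to Cdkn2d), which binds Cdk4 and Cdk6. In embryos, many of these inhibitors are raised as cells leave the cycle to differentiate.

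Expression is given as FPKM, a count of read fragments scaled to transcript length and sequencing depth, which allows levels of different genes to be compared within a sample. FPKM summed to 361963 to 384773 per sample, and the number of reads behind these values is unknown, so no counting intervals are given. In the SMGs, all 10 listed markers of oral and salivary epithelium reached an FPKM of 1 in both samples, with a summed FPKM of 592 to 612. In the placodes only 3 did, and the sum was 7.002 to 7.081. These were Cdh1, for E-cadherin (1.11 and 1.18), Epcam (1.75 and 2.69) and Sox10 (2.00 and 1.58), while Krt5, Krt14 and Krt15 were listed at 0. Most of the listed markers were thus low in the placodes. Sox9, Krt19 and Ascl3, which the authors also use as salivary progenitor markers, are not in this list. By immunofluorescence, the authors report E-cadherin, Krt5 and Krt19 protein in the placodes. They also report increased Krt5 and Krt14 mRNA by qPCR when the last growth factor was added. All 8 neuronal markers reached an FPKM of 1 in both placode samples, with a summed FPKM of 996 to 1035 against 84.0 to 93.7 in the SMGs. The 8 neural progenitor markers summed to 854 to 880 in the placodes and to 62.0 to 66.2 in the SMGs. Erythroid markers summed to 3062 or more in the SMGs and to at most 0.255 in the placodes. Mesenchyme markers summed to 2204 to 2251 in the SMGs and to 221 to 230 in the placodes. For endothelial markers the sums were 169 to 176 in the SMGs and 13.5 to 15.2 in the placodes. Macrophage markers summed to 20.3 to 22.95 in the SMGs and to 2.53 to 2.95 in the placodes. The 6 pluripotency markers summed to 20.8 to 21.8 in the placodes and to 0.211 to 0.314 in the SMGs. Only 1 of them, Esrrb (19.95 and 19.6), reached an FPKM of 1 in both placode samples, and Pou5f1, for Oct4, was at 0.403 and 0.340. These are bulk samples, so fewer cells of a type and less RNA per cell cannot be told apart. The part of cell composition in the differences below was not tested.

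In the placodes, 8 of the 10 genes had higher mRNA levels and 2 had lower ones. The highest log2 fold changes belonged to Cdkn1a, Bbc3 and Ccng1, while Trp53 and Cdkn2c were lower. The test was limma on log2(FPKM + 1), two-sided, with Benjamini-Hochberg adjustment over all tested features, and a gene was called at an adjusted p below 0.05. The comparison called most of the transcriptome: 76.2% of tested features passed in either direction, 35.7% higher and 40.4% lower, so a call alone says little about a single gene. At least 2-fold differences past the threshold were found for 7 of the 10 genes, all 7 higher, against 29.4% of tested features in either direction, 14.1% of tested features that were at least 2-fold higher and 15.2% that were at least 2-fold lower. The median log2 fold change of the 10 genes was 1.25, against -0.05 over all tested features. The 10 genes were chosen with earlier results of these data known, so these shares and medians are a description and not a test. For each of the 10, all placode values lay on one side of all SMG values, as for 88.4% of tested features, and with 2 samples against 2 an exact permutation test of 1 gene cannot give a p below 0.333.

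**Figure D1:**
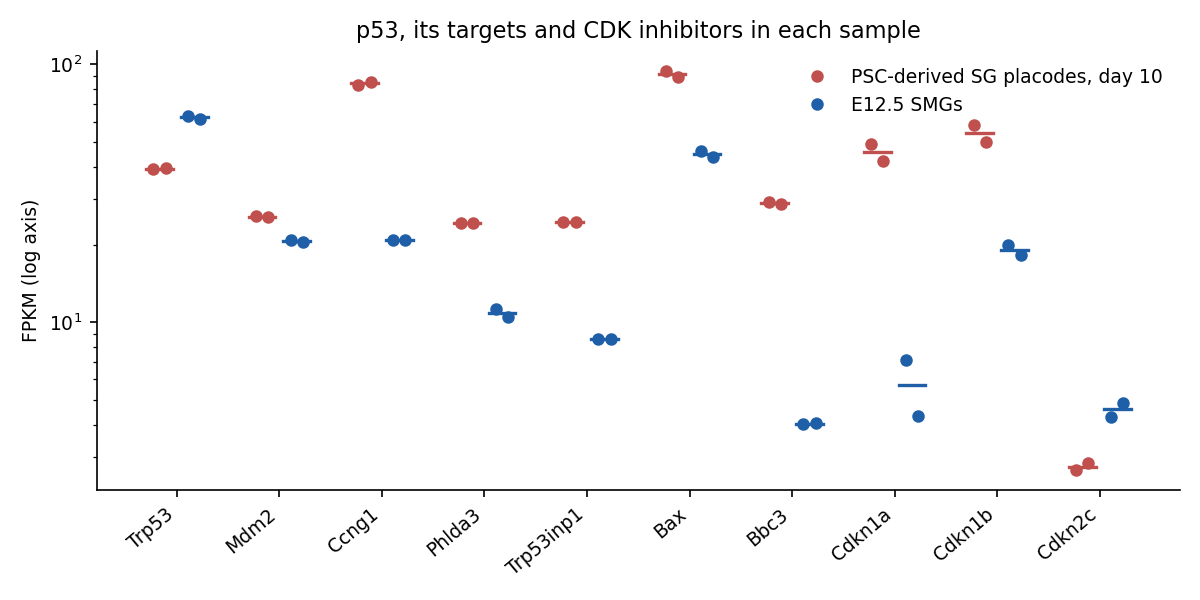
FPKM of the 10 genes in each sample on a log axis, with placodes in red, SMGs in blue, points for samples and short lines for group means. Trp53 and Cdkn2c lie lower in the placodes, the other 8 genes lie higher, and the samples of a group lie close together except for Cdkn1a in the SMGs (7.12 and 4.32).

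Trp53 (Ensembl gene ENSMUSG00000059552) is at chr11:69580359-69591873 in GRCm38, on the plus strand. The placode samples measured 39.1 and 39.6 FPKM, and the SMG samples 62.8 and 61.6. Both placode samples were lower than both SMG samples, with a log2 difference of -0.65 ± 0.046 (SE, limma adjusted p = 3.55e-05). Mdm2 (chr10:117688875-117710758, minus strand) moved the other way, at 25.7 and 25.6 in the placodes and 20.8 and 20.4 in the SMGs. This was the smallest difference among the 10 genes, 0.30 on the log2 scale with a 95% interval of 0.18 to 0.43 (adjusted p = 2.07e-03). Within a sample, the ratio of Mdm2 to Trp53 FPKM was 0.658 and 0.647 in the placodes and 0.331 and 0.332 in the SMGs. Thus the mRNA of p53 was lower and that of its ligase slightly higher in the same samples.

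A further list held 20 genes of the p53 family and of p53 regulators, including Trp53 and Mdm2. Of 19 tested, 8 rose and 8 fell, 42.1% each, near the 35.7% and 40.4% of all tested features. The median log2 fold change of this list was -0.05, equal to that of all features. Both paralogs of Trp53 were near 0 in the placodes. Trp63, the p53 relative required for stratified epithelium, had an FPKM of 0.0286 and 0.0262 in the placodes and 13.6 and 13.2 in the SMGs (log2 fold change -3.81, adjusted p = 6.09e-07). Trp73 was at 0 and 0.109 against 1.90 and 1.88, and its mean fell just short of the minimum for testing. Trp63 is also in the list of oral and salivary epithelium markers, all 10 of which fell in the placodes, and the part of epithelial content in its fall was not tested. Mdm4, the partner of Mdm2 that inhibits p53 without being a ligase, was at 18.6 and 18.9 against 19.2 and 19.7. Its log2 fold change of -0.05 had a 95% interval of -0.19 to 0.09 (adjusted p = 0.435), and its sign turned under 2 of 4 other scalings.

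Hipk2, a kinase that phosphorylates p53, had the highest log2 fold change of the regulators, with 25.6 and 28.3 FPKM in the placodes against 11.6 and 13.1 (log2 fold change 1.07, adjusted p = 5.23e-05 by limma). Ppm1d, a phosphatase that reverses p53 activation, rose by 0.59, and Kat5, an acetyltransferase of p53, by 0.57. Chek1, the checkpoint kinase of replication stress, was at 4.35 and 4.48 in the placodes and 12.49 and 13.3 in the SMGs, so that it fell by 1.36 on the log2 scale (adjusted p = 1.52e-05). Ppp1r13l, which encodes the p53 inhibitor iASPP, was at 2.65 and 3.39 against 6.70 and 6.02. Activating and inhibiting regulators were thus found among both the genes that rose and those that fell.

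Ccng1, cyclin G1, a strong p53 target that takes part in the regulation of Mdm2, had the largest difference relative to its standard error among the 10 genes. It is at chr11:40748552-40755311 on the minus strand. Placode samples reached 83.5 and 85.3 FPKM against 20.9 and 20.8 in SMG samples, a 4.05-fold higher mean (log2 fold change 1.97 ± 0.047, SE, limma adjusted p = 4.97e-07). The difference was 62.1 times the larger of the differences between samples of a group. Trp53inp1 (chr4:11156431-11174379, plus strand), a p53-induced nuclear protein linked to autophagy and cell death, measured 24.4 in both placode samples, against 8.63 and 8.59 (log2 fold change 1.40, adjusted p = 3.98e-06). Phlda3 (chr1:135766119-135769136, plus strand), a p53-induced inhibitor of Akt, measured 24.2 in both placode samples, against 11.2 and 10.4 (log2 fold change 1.09, adjusted p = 1.50e-05). For all 3 genes the groups were far apart. The samples of a group were nearly equal except for Phlda3 in the SMGs, with a coefficient of variation of 5.16%.

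The apoptosis genes Bax and Bbc3 were also higher in the placodes. Bax (chr7:45461697-45466898, minus strand), the effector that forms pores in the outer mitochondrial membrane, was the most abundant of the 10 genes there. It measured 94.5 and 89.1 FPKM, against 46.0 and 43.7 in the SMGs (log2 fold change 1.02, standard error 0.054, adjusted p = 1.04e-05). Its log2 fold change ran from 0.94 to 1.08 over the processing alternatives, on both sides of a 2-fold difference. Bax shares 12.2% of its annotated exon bases with Gm45808 on the same strand, so some of its reads cannot be assigned to 1 gene. Bbc3 (chr7:16308393-16318205, plus strand), which encodes the BH3-only protein PUMA, rose more, from 4.02 and 4.06 in the SMGs to 29.3 and 28.7 in the placodes. The mean was thus 7.17-fold higher (log2 fold change 2.57 ± 0.066, SE, limma adjusted p = 6.09e-07). Bbc3 was the least abundant of the 10 genes in the SMGs and the sixth in the placodes.

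In the wider list of the BCL2 family and the apoptosome, which includes both genes, 6 of 19 tested genes rose and 8 fell. These shares, 31.6% and 42.1%, were near the 35.7% and 40.4% of all tested features, and the median log2 fold change of the list was -0.09. Bak1, the other pore-forming effector, fell from 18.4 and 16.1 in the SMGs to 10.9 and 11.5 in the placodes (log2 fold change -0.58, adjusted p = 8.60e-04). It shares 25.5% of its exon bases with a gene on the opposite strand. Hrk, a BH3-only gene known from neurons, was at 3.24 and 3.36 in the placodes and at 0.0807 and 0.164 in the SMGs. Bmf, another BH3-only gene, fell from 28.5 and 30.7 in the SMGs to 10.9 and 11.9.

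The genes that restrain apoptosis differed in direction among themselves. Bcl2 was at 1.23 and 1.03 in the placodes and at 12.3 and 12.8 in the SMGs, 11.2-fold lower in the placodes by group means (log2 fold change -2.68, adjusted p = 2.21e-06). Bcl2l1, for BCL-XL, was higher in the placodes, with 37.3 and 39.0 against 21.4 and 20.5 (log2 fold change 0.83, adjusted p = 2.53e-05). Mcl1 was at 53.4 and 53.9 against 47.3 and 47.6 (log2 fold change 0.18, adjusted p = 0.0123), a call that was lost under quantile normalization (adjusted p = 0.109) and without placode sample 2 (adjusted p = 0.0552). Xiap, a caspase inhibitor, fell by 0.82 on the log2 scale. The ratio of Bax to Bcl2 FPKM was 77.0 and 86.6 in the placodes and 3.72 and 3.40 in the SMGs, but the ratio of Bax to Bcl2l1 was 2.53 and 2.29 against 2.15 and 2.13.

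**Figure D2:**
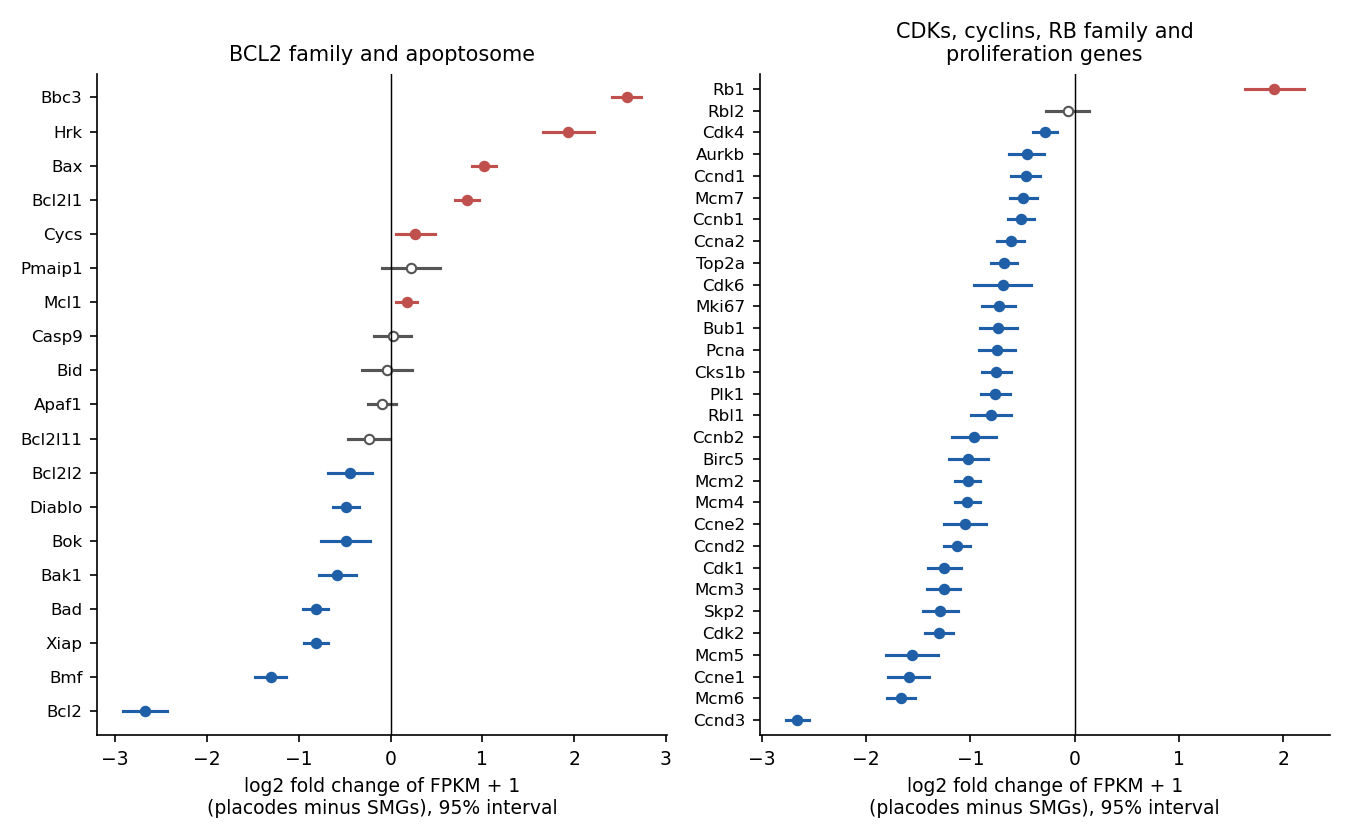
Log2 fold changes of FPKM + 1 (placodes minus SMGs) with 95% intervals for the tested genes of the BCL2 family and apoptosome (left) and for CDKs, cyclins, the RB family and proliferation genes (right), with called rises in red, called falls in blue and genes not past the threshold as open circles. On the left 6 genes rose and 8 fell, and on the right Rb1 was the single gene that rose.

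Cdkn1a, for p21, the main p53 target that arrests the cycle, had the highest log2 fold change of the 10 genes. It is at chr17:29090976-29100727 on the plus strand. The placode samples measured 49.0 and 42.3 FPKM, and the SMG samples 7.12 and 4.32. The mean was 7.98-fold higher in the placodes (log2 fold change 2.82, standard error 0.19, 95% interval 2.35 to 3.30, adjusted p = 3.07e-05). Its SMG samples differed more from each other than those of any other of the 10 genes, with a coefficient of variation of 34.6%, and the difference between the groups was still 4.63 times that gap. It shares 7.68% of its exon bases with AC167363.2 on the opposite strand, and the strandedness of the libraries is not given in the sources used here.

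Cdkn1b (chr6:134920401-134925513, plus strand), for p27, which holds back Cdk2 and is often raised as cells stop dividing, was at 58.3 and 50.1 in the placodes and at 19.99 and 18.2 in the SMGs (log2 fold change 1.45, standard error 0.086, adjusted p = 1.62e-05). Cdkn1a was lower than Cdkn1b in every sample. The ratio of Cdkn1a to Cdkn1b was 0.841 and 0.844 in the placodes and 0.356 and 0.237 in the SMGs. Cdkn2c (chr4:109660876-109667189, minus strand), for the Ink4 protein p18, was at 2.66 and 2.85 in the placodes and at 4.31 and 4.86 in the SMGs, which put it lower in both placode samples (log2 fold change -0.57 ± 0.10, SE, limma adjusted p = 2.63e-03). It was the least abundant of the 10 genes in the placodes. Its mean was below 5 FPKM, so it was not tested at that stricter minimum.

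Taking all 7 CDK inhibitor genes, 5 were tested, of which 3 rose and 2 fell, in a comparison that called 76.2% of all tested features. The largest difference was in a gene outside the set, Cdkn1c for p57, an imprinted gene of the Cip/Kip family. It measured 144 and 146 FPKM in the placodes and 2448 and 2775 in the SMGs, where it ranked 11th and 5th of all features. The mean was 18.0-fold lower in the placodes (log2 fold change -4.16, standard error 0.079, adjusted p = 2.59e-07), and 30.7% of its exon bases are shared with Gm44732 on the opposite strand. Cdkn1c accounted for 98.9% and 99.2% of the summed Cip/Kip FPKM in the SMGs and for 57.3% and 61.3% in the placodes. The summed FPKM of Cdkn1a and Cdkn1b was therefore higher in the placodes (107 and 92.4 against 27.1 and 22.6), while the sum of all 3 genes was lower (251 and 238 against 2470 and 2800).

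Among the other Ink4 genes, Cdkn2d, for p19, was at 25.9 and 26.7 in the placodes and at 12.99 and 14.2 in the SMGs (log2 fold change 0.90, adjusted p = 3.91e-05). Cdkn2a was at 0.895 and 0.908 in the placodes, but both SMG samples listed it at 0. That gene makes both p16 and the Mdm2 inhibitor p19Arf from different first exons, and gene-level values cannot tell these apart. Cdkn2b was at 0.453 and 0.679 against 0.352 and 0.584, so its groups overlapped. Neither Cdkn2a nor Cdkn2b reached a mean FPKM of 1, and they were not tested. Cdkn2d was the most abundant Ink4 gene in all 4 samples.

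**Figure D3:**
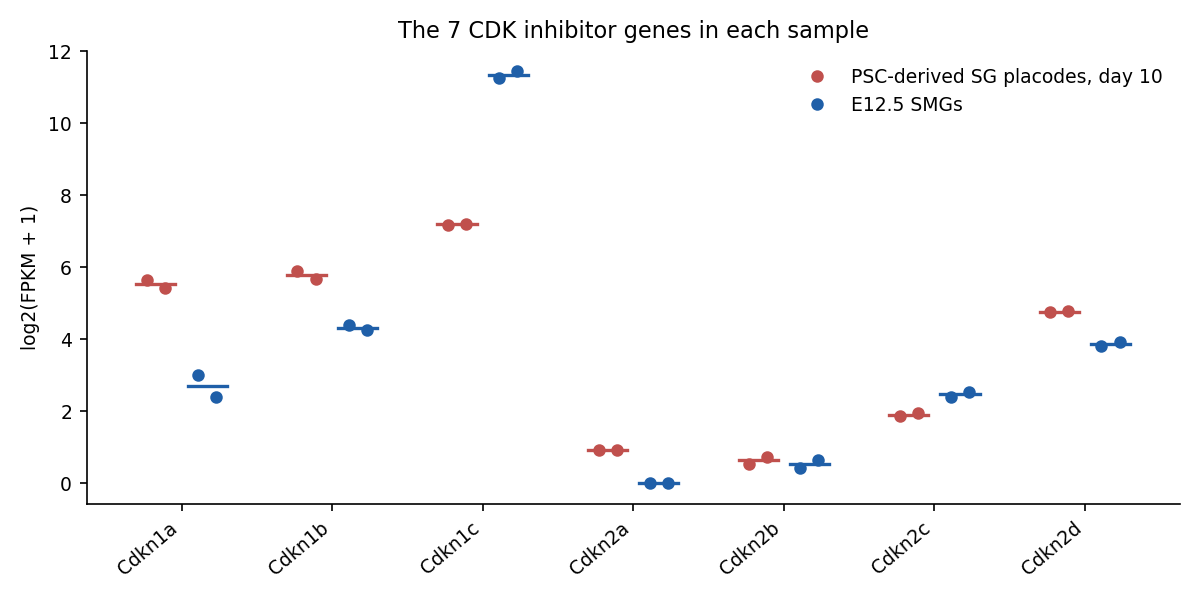
Expression of the 7 CDK inhibitor genes in each sample as log2(FPKM + 1), with placodes in red, SMGs in blue, points for samples and short lines for group means. Cdkn1c stands above all others in the SMGs (2448 and 2775 FPKM), whereas Cdkn1a and Cdkn1b lie higher in the placodes.

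Most of the listed CDKs, cyclins and related genes were lower in the placodes, as were the general proliferation genes. Of 14 CDKs, cyclins, RB family members and genes for p27 breakdown, 12 fell and 1 rose, or 85.7% and 7.14%, against 40.4% and 35.7% of all tested features. Their median log2 fold change was -0.78. Ccnd3, cyclin D3, was at 31.6 and 31.03 in the placodes and at 200 and 206 in the SMGs (log2 fold change -2.66, adjusted p = 2.22e-07). Ccne1, cyclin E1, fell by 1.59 and Cdk2, its kinase, by 1.30 on the log2 scale. Rb1, the retinoblastoma protein that these kinases inactivate, was the gene that rose, from 5.47 and 4.16 in the SMGs to 21.02 and 20.6 (log2 fold change 1.91, adjusted p = 1.79e-05). Rb1 shares 14.9% of its exon bases with genes on the opposite strand. All 16 proliferation genes fell, against 40.4% of all tested features, and their median log2 fold change was -0.86. Mcm6, Mcm5 and Mcm3, subunits of the replicative helicase, fell by 1.66, 1.56 and 1.26. Both placode samples were thus lower in the summed FPKM of the proliferation genes (380 and 392 against 748 and 722), beside the higher Cdkn1a and Cdkn1b. The part of proliferation in the differences of the 10 genes was not tested.

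Outside the 10 genes, 33 further targets of p53 were listed, and 31 were tested. The lists overlap: Ppm1d is also counted among the p53 regulators, and other targets are also in the BCL2 family and apoptosome list. In the placodes 17 rose and 8 fell, or 54.8% and 25.8% of those tested, against 35.7% and 40.4% of all features. The median log2 fold change was 0.47. At least 2-fold differences past the threshold were 11 higher and 4 lower of the 31, against 14.1% and 15.2% of all tested features. Rprm, reprimo, which arrests cells in the G2 phase, had the highest log2 fold change. Its FPKM was 35.8 and 30.8 in the placodes and 1.24 and 0.546 in the SMGs (log2 fold change 4.20, limma adjusted p = 4.51e-06). Btg2, an antiproliferative gene also known from neural progenitors about to make neurons, was at 48.2 and 47.6 against 4.86 and 5.51. Plk3, a stress-induced kinase, was at 26.8 and 24.5 against 3.07 and 3.26. By group means, Rprm was 37.3-fold, Btg2 9.23-fold and Plk3 8.09-fold higher in the placodes. The Rprm ratio is imprecise, as it divides by an SMG mean of 0.893 FPKM from 2 unlike samples.

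The largest falls among these targets were in Perp, Sfn and Sesn1. Perp, a desmosome gene that p63 also drives in epithelium, was at 1.07 in both placode samples and at 27.3 and 24.8 in the SMGs (log2 fold change -3.70, adjusted p = 4.89e-07). Sfn, for 14-3-3σ, an epithelial inhibitor of the cell cycle, was at 0.571 and 0.846 against 12.0 and 12.98. Sesn1, a sestrin that restrains mTORC1, was at 11.4 and 8.40 against 37.4 and 40.1. Perp and Sfn fell together with the epithelial markers, whose summed FPKM was 7.002 to 7.081 in the placodes and 592 to 612 in the SMGs, and the part of epithelial content in them was not tested. The listed p53 targets thus moved in both directions, whereas the 7 targets among the 10 genes, chosen with earlier results known, all rose.

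**Figure D4:**
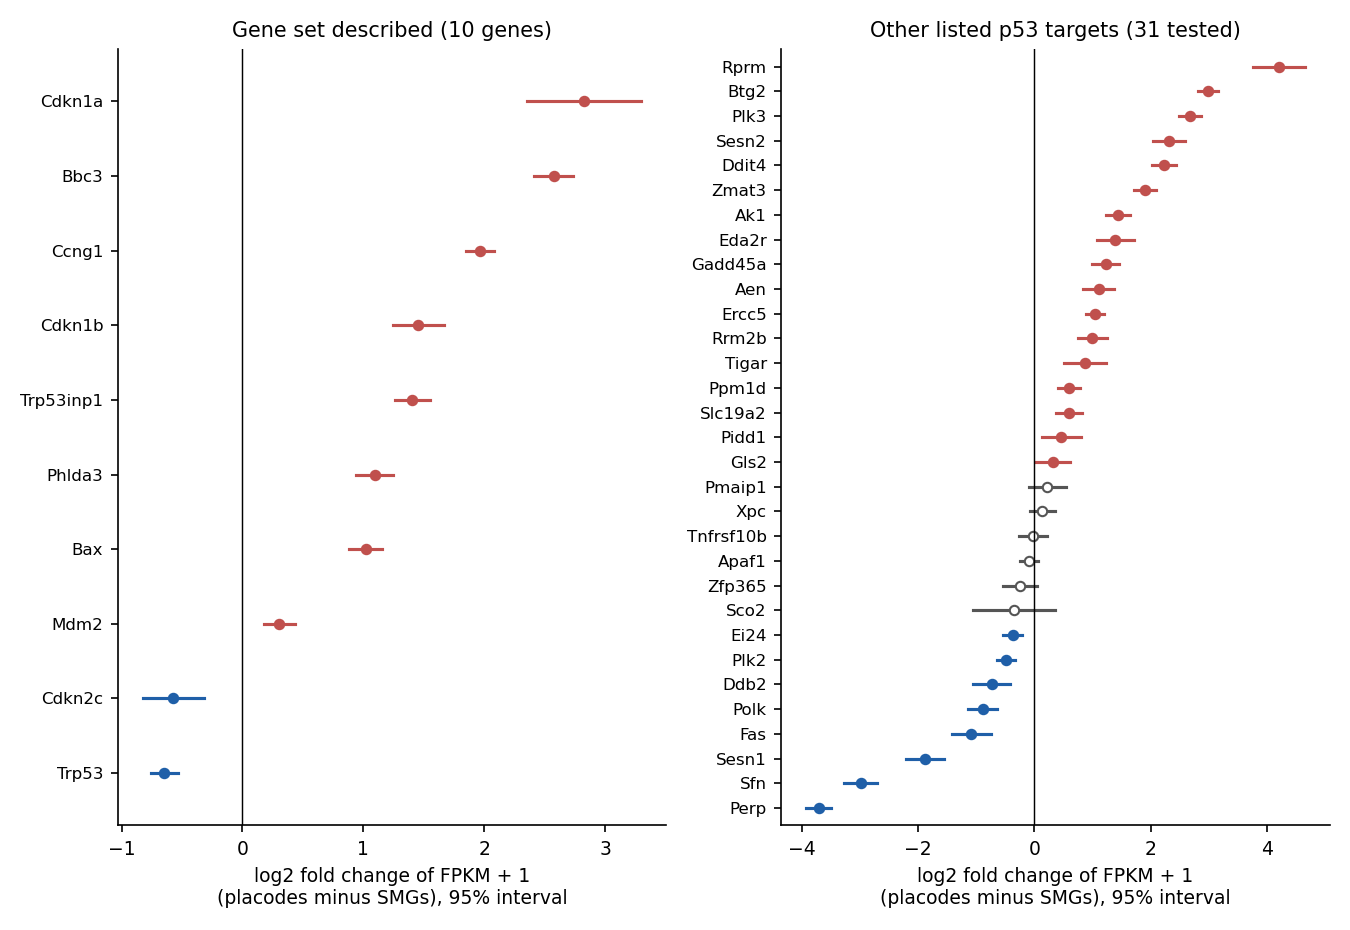
Log2 fold changes of FPKM + 1 (placodes minus SMGs) with 95% intervals for the 10 genes (left) and for 31 other tested p53 targets (right), with called rises in red, called falls in blue and genes not past the threshold as open circles. On the left 8 genes rose and 2 fell, and on the right 17 rose and 8 fell, from Rprm at 4.20 to Perp at -3.70.

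p53 binds a pair of 10-base sites of a known consensus, which is its own reverse complement, so a match is read on both strands at once. RefSeq promoter windows of GRCm38.p6, from 250 bases before to 50 bases after each annotated start, were searched for that 10-base consensus. Windows were found for 9 of the 10 genes and not for Trp53inp1. A match was present at 5 of the 9 genes (Bax, Mdm2, Ccng1, Trp53 and Cdkn1a), in 5 of their 13 windows, against 8.36% of all 32851 windows. Of the other p53 targets, 6 of 25 with a window had a match, against 9.55% of all genes. Most of the 9 genes were listed because they are known p53 targets, so these shares are a description. For the pair of sites without bases between them, the windows of Cdkn1a and Ccng1 came within 1 mismatch over 20 bases, as did 0.0883% of all windows. These 5 stretches are shown because they hold p53-like letters next to the starts of the genes compared. The upstream Cdkn1a window held 2 matches of 10 bases, and the match outside its stretch is not shown. Capitals mark the 10-base match, or for Cdkn1a and Ccng1 the 20 bases of the pair:
Cdkn1a, chr17:29090913-29090962, plus strand: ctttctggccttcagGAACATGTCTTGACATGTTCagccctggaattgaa
Ccng1, chr11:40755447-40755496, minus strand: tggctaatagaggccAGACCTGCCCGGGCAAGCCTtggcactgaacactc
Bax, chr7:45467075-45467114, minus strand: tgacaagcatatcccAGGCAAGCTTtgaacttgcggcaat
Mdm2, chr10:117710920-117710959, minus strand: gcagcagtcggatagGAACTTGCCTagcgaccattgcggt
Trp53, chr11:69580269-69580308, plus strand: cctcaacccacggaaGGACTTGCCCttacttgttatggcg

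The Cdkn1a stretch lies 51 to 32 bases before the upstream of its 2 annotated starts, and the Ccng1 stretch 195 to 176 bases before its start. None of the 5 stretches overlaps an annotated exon. Of the genes with a match, Cdkn1a, Ccng1, Bax and Mdm2 rose, by 2.82, 1.97, 1.02 and 0.30 on the log2 scale, and Trp53 fell. Bbc3, which rose by 2.57, had no match in its 3 windows, and neither had Phlda3, Cdkn1b and Cdkn2c. Sites farther from the starts or inside introns were not searched.

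The order of the 10 genes by level differed between the groups. In the placodes, Bax (91.8 ± 3.81 FPKM, SD, n = 2) and Ccng1 (84.4 ± 1.33) led, followed by Cdkn1b, Cdkn1a and Trp53, then Bbc3, Mdm2, Trp53inp1 and Phlda3 between 24.2 and 29.3, and Cdkn2c far below. In the SMGs, Trp53 (62.2 ± 0.883) and Bax (44.8 ± 1.61) led, and Ccng1, Mdm2 and Cdkn1b lay close together between 18.2 and 20.9. The SMG values of Cdkn1a overlapped those of Cdkn2c, so these neighbours could not be ordered. Among all 24771 features, Cdkn1a ranked 1377th and 1679th in the placode samples and 8226th and 9683rd in the SMG samples. Bbc3 moved from rank 9916 and 9850 in the SMGs to 2635 and 2707. Trp53 moved the other way, from rank 928 and 923 to 1841 and 1827.

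**Figure D5:**
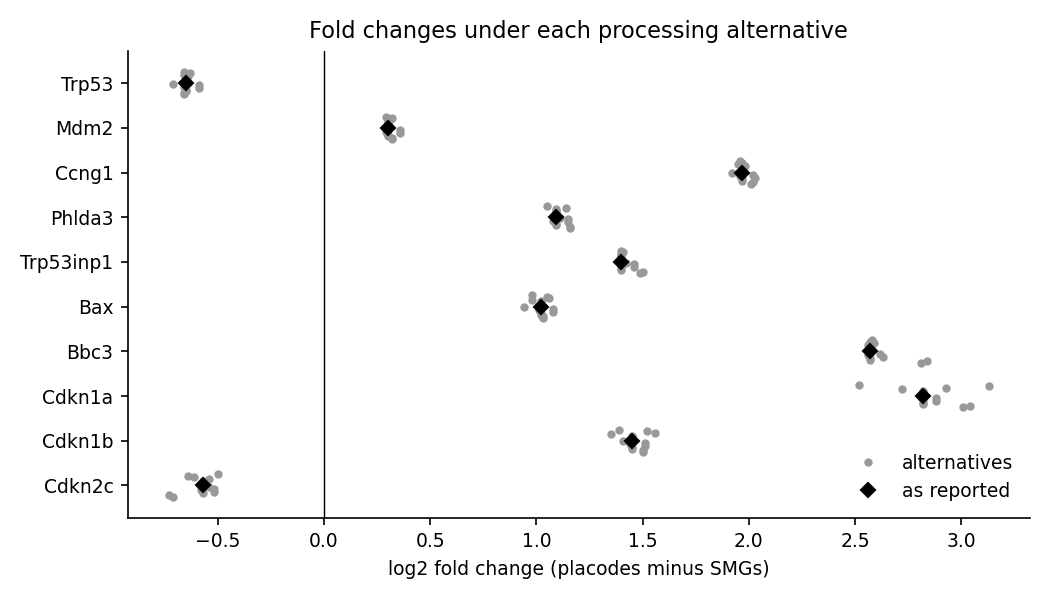
Log2 fold changes (placodes minus SMGs) of the 10 genes, with diamonds for the values given in the text and grey points for each processing alternative. Each gene kept its sign, and Cdkn1a had the widest range, from 2.52 to 3.13.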

How the data were processed

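RNA-seq values of 2 placode samples and 2 SMG samples were used, grouped by the sample titles. Paired-end reads were mapped by the authors to the mouse genome with HISAT2, and the expression of each gene was deposited as FPKM. The submitters' processing notes list GRCm38 and GRCh38 without their roles, and GRCm38 was taken as the mouse build. The HISAT2 version, the annotation, the strandedness and the program for FPKM are not given in the sources used here. Depth is unknown, and no intervals for counts are given.

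The tests used log2(FPKM + 1) of all features whose mean over the 4 samples was at least 1 FPKM. limma 3.58.1 (R 4.3.3) fitted 1 mean per group to each, moderated by eBayes with a trend. Two-sided p-values took the Benjamini-Hochberg adjustment over 13193 features. The procedure was tested on simulated data with few changed genes and noise drawn independently for each sample. Such data cannot show effects shared by the samples of a group. Fold changes of low genes are understated on this scale. Ratios of FPKM are ratios of group means. All 10 genes had the same symbol in GENCODE M21, from which coordinates and shared exons were taken. Promoter sequences are from RefSeq (GRCm38.p6). Figures were drawn with matplotlib 3.10.9 in Python 3.11.15.

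The 10 genes and all lists were chosen with earlier results of these data known. Named are the 10 genes, all CDK inhibitors, Trp63, Trp73, Mdm4, Bcl2, Bcl2l1, Mcl1 and Bak1, and up to 3 genes with the highest and 3 with the lowest log2 fold change per further list among called genes whose groups do not overlap. Marker genes and Gm45808, AC167363.2 and Gm44732 are named for the checks they serve. In the list of the BCL2 family and apoptosome, 1 gene is not reported here and was left out of its counts. There were 16 alternatives: other pseudocounts, filters, scalings, the replicate number as a block, other eBayes settings, no assembled loci, and each sample left out.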

Additional observations from a re-analysis of the deposited data

How the results depend on the processing

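The 10 genes kept their direction and their call in all 16 alternatives in which they were tested, with 8 higher throughout. The number lower was 1 at a mean FPKM of at least 5, where Cdkn2c was not tested. Leaving out 1 sample at a time, with the lone sample assumed to vary like the other group, gave 8 higher and 2 lower each time, and 8501 to 9087 called features in all against 10049 with all samples. Of the other named genes, Mdm4 turned sign to 0.01 when samples were rescaled to an equal sum and under median-ratio scaling (adjusted p = 0.92 and 0.93), within an interval that includes 0. Mcl1 lost its call under quantile normalization and without placode sample 2. The samples share only replicate numbers: differences between replicates 1 and 2 correlated at -0.0348 between the groups across the tested features, and the replicate block left 10043 features called and the 10 genes unchanged in call. Rescaling moved the median of all features by less than 0.1 on the log2 scale. The unknown depth limits statements on low genes such as Cdkn2a, Cdkn2b and Trp73. Groups of 2 were too small for a test of single outlying samples.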
